A study of Mus musculus with 8 samples.

Results

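The fatty acid oxidation and PPARα genes are a set of 33 genes of fatty acid oxidation and of the nuclear receptor PPARα, chosen by name from 21884 protein-coding genes: Ppara itself, the enzymes that carry fatty acids into mitochondria and break them down there and in peroxisomes, and well-known PPARα target genes. Chromatin accessibility was measured by ATAC-Seq on bulk nuclei, where a transposase inserts adapters into open DNA, in hepatocytes of mice labelled C57BL/6, 10 to 12 weeks old and on a normal diet (the study's methods name the substrain C57BL/6J and a slightly younger age at surgery), isolated by a collagenase perfusion in 2 steps. The groups were undamaged liver (0 h) and liver taken 48, 72 or 96 h past partial hepatectomy (PHx), in which surgeons remove liver lobes that then regrow, with 2 libraries each and 8 in all. The study's methods give several mice at each time for hepatocytes, and the study calls its bulk replicates at 0 and 48 h biological. The labels tie no library to an animal, so each p-value measures the spread between these libraries, which may be technical. For every gene the strongest open interval within 1 kb of any of its transcription start sites was taken as its promoter, and all other open regions over the gene body and 10 kb on each side as its other regions. In each peak list distinct intervals were ranked by the peak caller's p-value, rank 1 being the strongest, so a larger rank means weaker accessibility relative to the rest of that library. The members had 126 distinct other regions among 73710 consensus regions, and 8 of them lay within 1 kb of the start of a neighboring gene.

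Fatty acid oxidation shortens fatty acids by repeated rounds of dehydrogenation, hydration, oxidation and thiolysis. Long chains are activated to acyl-CoA, passed into mitochondria on carnitine and handed from enzyme to enzyme, while very long and branched chains start in peroxisomes. In hepatocytes PPARα, a receptor for fatty acids, binds DNA with RXR at a direct repeat of the hexamer AGGTCA with a 1-base spacer, called DR1, a letter pattern that HNF4α also recognizes, and it drives most of these genes in fasting.

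At 0 h the promoters of the members ranked much like other promoters. The median over the 33 members of the mean 0 h rank was 11077, against 10861 for the 13181 genes with a promoter interval in all 8 lists. The level differed widely between members, with 15 at a mean 0 h rank better than 10000 and 6 beyond 30000. Acadm, the medium-chain acyl-CoA dehydrogenase, ranked between 378 and 1248 in the 8 lists, and Fgf21, the fasting hormone, between 42483 and 127189. The median width of the intervals at 0 h (replicate 1) was 899 bases for the members and 830 bases for all promoters. Of the 33 members 32 had a promoter interval in every list, 26 of them within the 50000 strongest intervals of every list. The exception was Fabp1. Hadha and Hadhb share 1 interval between their divergent starts, so the 33 members had 32 distinct promoter intervals and this one enters each count below as 2 genes, and 7 members' intervals also lay within 1 kb of the start of another coding gene. The reads of Acaa1a and Acaa1b, and of Acot1 and Acot2, can fall on near-identical copies, and the values of these 4 genes are uncertain.

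At 48 h, 16 of the 32 testable member promoters (50%) had both libraries ranked below both of undamaged liver, and 2 (6.25%) had both above. Over all 13181 testable promoters the shares were 29.2% lower and 16.3% higher. Among those 16 were both carnitine palmitoyltransferases, the carnitine carrier, the shared interval of the trifunctional protein and both subunits of the electron transfer flavoprotein. The median difference in log2 rank of the members was -0.64 at 48 h, where a negative value means a weaker rank than at 0 h, against -0.20 for all promoters. Without 0 h replicate 2 the members' median was -0.21 against -0.13, and ranked among promoters it was -0.26 against 0.0. At 72 h 14 members were lower and 3 higher (all promoters 32.1% and 14.7%), with a median of -0.45 against -0.24. At 96 h 11 were lower and 2 higher (20% and 13.6%), with a median of -0.25 against -0.10. In all 6 PHx libraries 8 members (25%) ranked below both 0 h libraries and 0 ranked above them, where all promoters had 7.69% and 4.17%. These 8 were Cpt1a, Cpt2, Slc25a20, Hsd17b4, Hadh, Etfa, Eci2 and Plin2. This count too depended on the scale. Ranked among promoters, 4 members (12.5%) were lower in all 6, namely Cpt1a, Cpt2, Hsd17b4 and Eci2, against 4.78% of all promoters. On percentiles within each list it was these 4 and Etfa (15.6% against 3.79%), with Acads higher in all 6. On quantile-normalised fold enrichment, described below, it was 0 members against 4.2%. Wherever a promoter is given below as lower or higher with no scale named, the rank within the list is meant. The 3 times share their 0 h libraries, and with them any deviation of those libraries.

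No member promoter passed limma's test with Benjamini-Hochberg adjustment over all promoters at 0.05, in any contrast of ranks. The share called over all promoters was 0.0455% at 48 h, 0.0% at 72 h, 0.00759% at 96 h, 0.0228% for the mean of the 3 times and 0.0% for 96 h against 48 h. At an unadjusted p under 0.05, limma gave 4 members at 48 h, 5 at 72 h, 3 at 96 h, 7 for the mean of the 3 times and 2 for 96 h against 48 h, where all promoters gave 12.5%, 9.84%, 5.32%, 10.6% and 7.92%. For a single promoter an exact permutation of 2 against 2 libraries cannot give a two-sided p below 0.333. The count depended on the scale. Ranked among promoters only, which removes the shift of all promoters, 10 members were lower (31.2%) and 5 higher (15.6%) at 48 h, against 22.1% and 21.6% of all promoters. On the peak caller's fold enrichment over local background, quantile-normalised so that every library has the same set of values, 11 were lower (34.4%) and 5 higher (15.6%), against 19.8% and 21.4%. On percentiles within each list 12 were lower (37.5%) and 3 higher (9.38%), against 22.8% and 19.7%. Ranked among promoters, 10 were lower and 5 higher at 72 h (all 22.6% and 20.7%), and 7 lower and 4 higher at 96 h (16.9% and 16.6%). On percentiles 7 members were lower (21.9%) and 5 higher (15.6%) at 72 h, against 17.2% and 25.4% of all promoters, and 7 were lower and 7 higher at 96 h, against 12.4% and 21.5%. On quantile-normalised fold 6 were lower (18.8%) and 5 higher (15.6%) at 72 h, with 20.1% and 19.9% of all, and 5 were lower (15.6%) and 8 higher (25%) at 96 h, with 15.5% and 16.5%, which left more members higher than lower on that scale at 96 h only.

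The fold enrichment as deposited, with no scaling between libraries, was lower at 48 h over most of the genome's promoters. On it 24 members (75%) were lower and 1 (3.12%) higher at 48 h, where all promoters had 70.6% and 2.25%, and the median log2 difference was -0.52 for the members and -0.40 for all. At 72 h 12 were lower and 3 higher (all 37.1% and 8.86%), and at 96 h 8 and 3 (26.5% and 8.51%). In all 6 PHx libraries 5 members (15.6%) were lower and 0 higher, against 16.3% and 0.926% of all promoters. On this scale limma called 6 members at 48 h with adjustment (18.8%), against 19.2% of all promoters, namely Cpt2, Slc25a20, Hsd17b4, Acadl, Eci2 and Decr1, all of them lower. The share of members called was thus close to that of all promoters. This scale was added after the data were seen.

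**Figure D1:**
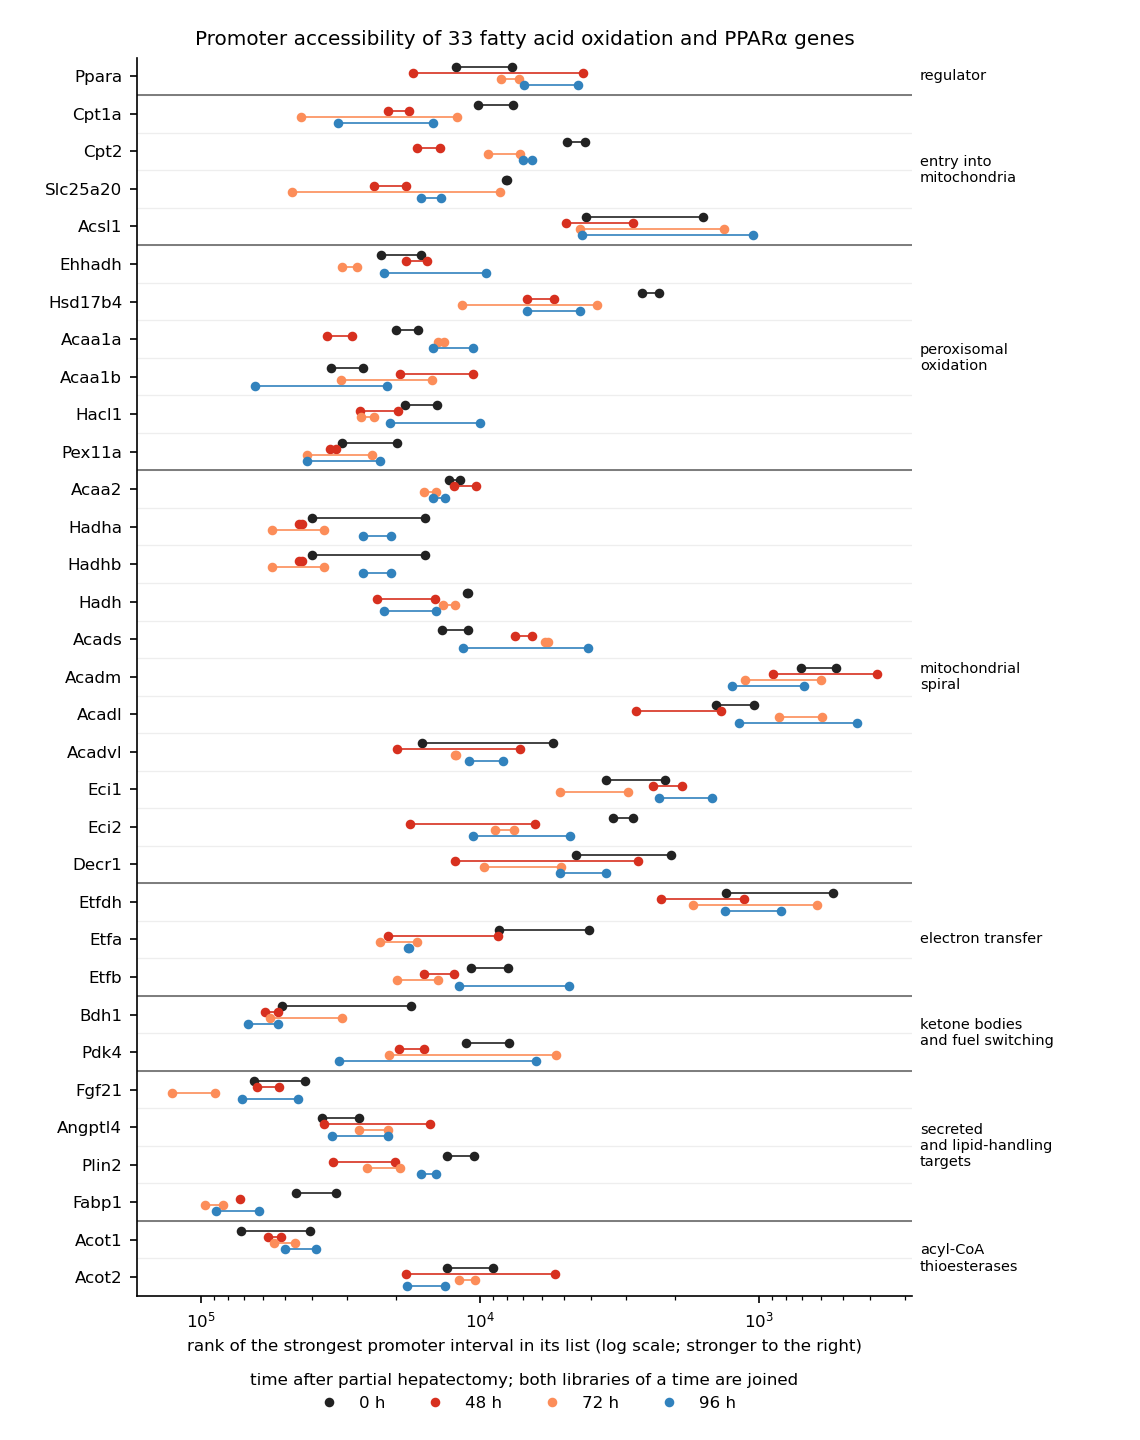
Rank of the strongest promoter interval of each of the 33 members in each library (x axis, log scale, stronger to the right), grouped by role; points are libraries, colors are times after PHx, and both libraries of a time are joined. The black 0 h points of Cpt1a, Cpt2, Slc25a20, Hsd17b4, Hadh, Etfa, Eci2 and Plin2 lie to the right of all 6 PHx points, and Ppara has overlapping times.

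The hepatocyte label was checked against promoters of marker genes. Of 10 hepatocyte markers 10 had a promoter interval in each 0 h list, 6 and 8 in the 48 h lists and 8 to 10 in the later ones, and 4 of the 5 testable ones were lower in both 48 h libraries. Of 6 Kupffer cell markers 0 or 1 was listed in a library, of 6 endothelial markers 2 to 4, of 6 stellate cell markers 3 to 6 and of 6 cholangiocyte markers 3 to 5. The defining markers Csf1r, Ptprc, Stab2, Lyve1 and Krt19 had no promoter interval in any list. Of 3 testable stellate cell markers 2 were higher in both 48 h libraries. In bulk libraries fewer hepatocytes and less accessible hepatocyte chromatin cannot be told apart. The lists held 105206 to 154577 distinct intervals, and the −log10 p at rank 50000 was 8.05 and 8.62 in the 48 h libraries, 8.29 in 96 h replicate 2 and 9.96 to 15.2 in the other 5. The part of the markers and of this signal strength in the members' differences was not tested.

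Ppara, on chromosome 15 (85734983 to 85802819), encodes the receptor that directs this program. Its promoter ranked 12246 and 7684 (0 h), 4262 and 17343 (48 h), 8403 and 7245 (72 h), and 6984 and 4472 (96 h). The 0 h and 48 h libraries overlapped, and both 96 h libraries stood above both 0 h libraries. The difference at 48 h was 0.17 ± 0.68 (SE; limma adjusted p = 0.94), and it had the opposite sign without 0 h replicate 1 or without 48 h replicate 1.

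The genes for the entry of fatty acids into mitochondria had the lowest median of the roles at 48 h (-1.27 over 4 members), with 3 of 4 (75%) lower in all 6 PHx libraries, against 7.69% of all promoters. Ranked among promoters or on percentiles 2 of the 4 were, Cpt1a and Cpt2, and on quantile-normalised fold 0 of the 4. Cpt1a (chromosome 19, 3322334 to 3385733) encodes the rate-limiting carnitine palmitoyltransferase of the outer membrane. Its promoter ranked 10200 and 7617 (0 h), 21422 and 17924 (48 h), 12090 and 43984 (72 h), and 32394 and 14750 (96 h). All 6 PHx libraries stood below both 0 h libraries, with a 48 h difference of -1.15 ± 0.59 (SE; limma adjusted p = 0.419). These ranks are of an interval at +1002 from the gene's first base, save in 72 h replicate 2, where a neighboring one at +131 was the strongest. The interval at +131 alone ranked 37177 and 39134 (0 h) and 64839 and 38627 (48 h). It overlapped 0 h at 48 h and was lower at 72 and 96 h. The fold enrichment of the strongest interval as deposited (6.68 and 7.11 at 0 h, 5.15 and 5.02 at 48 h) did not overlap, while the quantile-normalised one did. Cpt2 (chromosome 4, 107903981 to 107923610) encodes the partner enzyme of the inner membrane. It ranked 4191 and 4860 (0 h), 13874 and 16821 (48 h), 9378 and 7187 (72 h), and 7012 and 6507 (96 h). The 48 h libraries were the weakest and the later ones lay between them and 0 h, with differences of -1.76 ± 0.63 (SE; limma adjusted p = 0.257) at 48 h, -0.86 at 72 h and -0.58 at 96 h. Its fold enrichment over local background was 12.3 and 11.6 at 0 h, and 7.18 and 7.46 at 48 h. Slc25a20 (chromosome 9, 108662088 to 108684641) encodes the carnitine-acylcarnitine carrier. It ranked 7991 and 8041 (0 h), 18463 and 24083 (48 h), 47122 and 8454 (72 h), and 13812 and 16291 (96 h). One 72 h library lay close to 0 h and the other was the weakest of all, and the 48 h difference was -1.40 ± 0.62 (SE; limma adjusted p = 0.348). Acsl1, which activates long-chain fatty acids, ranked between 1048 and 4912 with overlap at each time.

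Among the 6 members of peroxisomal oxidation 4 (66.7%) were lower and 1 (16.7%) higher in both 48 h libraries, where all promoters had 29.2% and 16.3%. Ranked among promoters 2 were lower (Hsd17b4 and Acaa1a) and 2 higher (Ehhadh and Acaa1b), and on percentiles 2 were lower and 1 higher. On quantile-normalised fold 3 were lower (Hsd17b4, Acaa1a and Hacl1) and 1 higher (all promoters 19.8% and 21.4%). Hsd17b4 (chromosome 18, 50128201 to 50196269), the D-bifunctional protein of peroxisomes, ranked 2290 and 2625 (0 h), 6782 and 5413 (48 h), 3807 and 11653 (72 h), and 6777 and 4393 (96 h). Every PHx library was weaker than both 0 h libraries, with a 48 h difference of -1.31 ± 0.71 (SE; limma adjusted p = 0.444). The thiolase copies Acaa1a and Acaa1b stood on opposite sides at 48 h. Acaa1b (chromosome 9, 119148023 to 119157093) ranked 26259 and 34271 (0 h), 19439 and 10577 (48 h), 31480 and 14826 (72 h), and 63888 and 21488 (96 h). Both 48 h libraries were stronger than both 0 h libraries and the later times overlapped 0 h, with a 48 h difference of 1.06 ± 0.55 (SE; limma adjusted p = 0.419). With starts extended by 500 bp instead of 1 kb, the difference was 0.26. Acaa1a ranked 20073 and 16639 (0 h) and 35522 and 28672 (48 h), and was above both 0 h libraries at 72 h (13484 and 14197) and 96 h (14764 and 10576). Its interval lies within 1 kb of the start of Myd88. Ehhadh, the L-bifunctional enzyme, overlapped at 48 h and was lower in both 72 h libraries (31145 and 27587 against 16231 and 22678). Hacl1, which cleaves branched and 2-hydroxy fatty acids, was lower at 48 and 72 h, and Pex11a, which helps peroxisomes divide, at 48 h.

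Of the 11 members of the mitochondrial spiral 4 (36.4%) were lower and 1 (9.09%) higher in both 48 h libraries, against 29.2% and 16.3% of all promoters, and 2 of the 4 are Hadha and Hadhb with their shared interval. The balance depended on the scale. On percentiles 3 were lower and 2 higher (all promoters 22.8% and 19.7%). On fold as deposited 9 were lower and 0 higher (all 70.6% and 2.25%). Ranked among promoters 2 were lower (Hadh and Eci2) and 3 higher (Acaa2, Acads and Eci1), and on quantile-normalised fold 3 were lower and 4 higher. The median log2 rank difference of the 11 was -0.68 at 48 h, -0.42 at 72 h and -0.01 at 96 h. Eci2 (chromosome 13, 34977748 to 35027096), an isomerase for unsaturated fatty acids, had the largest 48 h difference of the 32 promoters. Its strongest interval (chr13:34993599-34994715) lies at an internal start of the gene. It ranked 3329 and 2821 (0 h), 17841 and 6361 (48 h), 8853 and 7530 (72 h), and 10638 and 4771 (96 h). All 6 PHx libraries were weaker than both 0 h libraries, with -1.80 ± 0.68 (SE; limma adjusted p = 0.276) at 48 h. The interval of Hadha and Hadhb, the subunits of the trifunctional protein, ranked 39918 and 15768 (0 h) and 43396 and 44459 (48 h), and overlapped 0 h at 72 and 96 h. Hadh, the short-chain 3-hydroxyacyl-CoA dehydrogenase, ranked 11168 and 11035 (0 h) and 12297 to 23365 in the 6 PHx libraries. The acyl-CoA dehydrogenases did not share a direction. Acads, for short chains, was higher at 48 h (7471 and 6488 against 13702 and 11024) and at 72 h (5826 and 5699). Acadl was higher at 72 h only, and Acadm and Acadvl overlapped 0 h at each time. Decr1, which reduces the double bonds of unsaturated fatty acids, overlapped at 48 h (12297 and 2707 against 2060 and 4544) and was lower at 72 h.

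The electron transfer flavoprotein passes the electrons of these dehydrogenases to the respiratory chain. Etfa (chromosome 9, 55454508 to 55512243), its alpha subunit, ranked 8545 and 4064 (0 h), 8653 and 21307 (48 h), 16877 and 22765 (72 h), and 18037 and 18135 (96 h). All 6 PHx libraries lay below both 0 h libraries, the first of them by a small margin, and its difference was larger in size at 72 h (-1.73) and 96 h (-1.62) than at 48 h (-1.20 ± 0.60, SE; limma adjusted p = 0.404). For the mean of the 3 times it had the lowest unadjusted limma p of the members (0.00392, adjusted p = 0.259), with a difference of -1.52 ± 0.49 (SE). Its fold enrichment as deposited was 11.7 and 13.0 at 0 h and 9.80 and 6.91 at 48 h, but ranked among promoters or on quantile-normalised fold its 0 and 48 h libraries overlapped. Etfb, the beta subunit, was lower at 48 and 72 h and overlapped 0 h at 96 h. Etfdh, the ubiquinone oxidoreductase, stayed between ranks 543 and 2245 and overlapped 0 h at each time.

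Both genes of ketone bodies and fuel switching were lower in both 48 h libraries, against 29.2% of all promoters. Ranked among promoters both were lower too (all 22.1%). On percentiles only Pdk4 was (all 22.8%), and on quantile-normalised fold only Bdh1 (all 19.8%). Pdk4, the kinase that holds back glucose oxidation, ranked 11213 and 7880 (0 h) and 15823 and 19479 (48 h), and overlapped 0 h later. Bdh1, the last enzyme of ketone body formation, ranked 51390 and 17712 (0 h) and 59003 and 53106 (48 h), and was lower again at 96 h (67724 and 53068).

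Among the secreted and lipid-handling targets, Plin2 (chromosome 4, 86648386 to 86670060), which coats lipid droplets, ranked 10538 and 13145 (0 h), 33805 and 20213 (48 h), 25473 and 19423 (72 h), and 14420 and 16349 (96 h). It was weaker in all 6 PHx libraries and closest to 0 h at 96 h, with differences of -1.15 ± 0.54 (SE; limma adjusted p = 0.369), -0.92 and -0.38 in turn. In 48 h replicate 1 its strongest interval was a neighboring one upstream. Fabp1 (chromosome 6, 71199827 to 71205023), the liver fatty acid-binding protein, ranked 45782 and 32978 (0 h). It had no interval in 48 h replicate 1 and ranked 72576 in 48 h replicate 2, 96580 and 83817 (72 h), and 62126 and 88604 (96 h). Every PHx library that listed it was weaker than both 0 h libraries, its fold enrichment being 3.13 and 3.42 at 0 h and 2.10 to 2.73 after PHx. It could not be fitted, because the fit took only genes listed in all 8 libraries. Angptl4, an inhibitor of lipoprotein lipase, ranked between 15083 and 36865 and overlapped 0 h at each time.

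The members that differed least at 48 h were Acot1, with ranks from 38848 to 71887, Acadm from 378 to 1248, Acaa2 from 10362 to 15835, Fgf21 from 42483 to 127189 and Acot2 from 5394 to 18415. Acot1 and Acot2 are thioesterases that free fatty acids from CoA, Acaa2 is the mitochondrial thiolase, and the 48 h differences of all 5 lay between -0.13 and 0.13. The values of Acot1 join a pair of intervals, since the strongest lay at +889 from the gene's first base in both 0 h libraries and 48 h replicate 2, and at +11 in the other 5. The interval at +11 alone differed by 0.32 at 48 h, 0.81 at 72 h and 0.99 at 96 h, without overlap at the later times. Acaa2 was lower in both libraries at 72 and at 96 h. At 72 h both libraries of Fgf21 were weaker than its 0 h libraries (127189 and 89212 against 64708 and 42483).

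**Figure D2:**
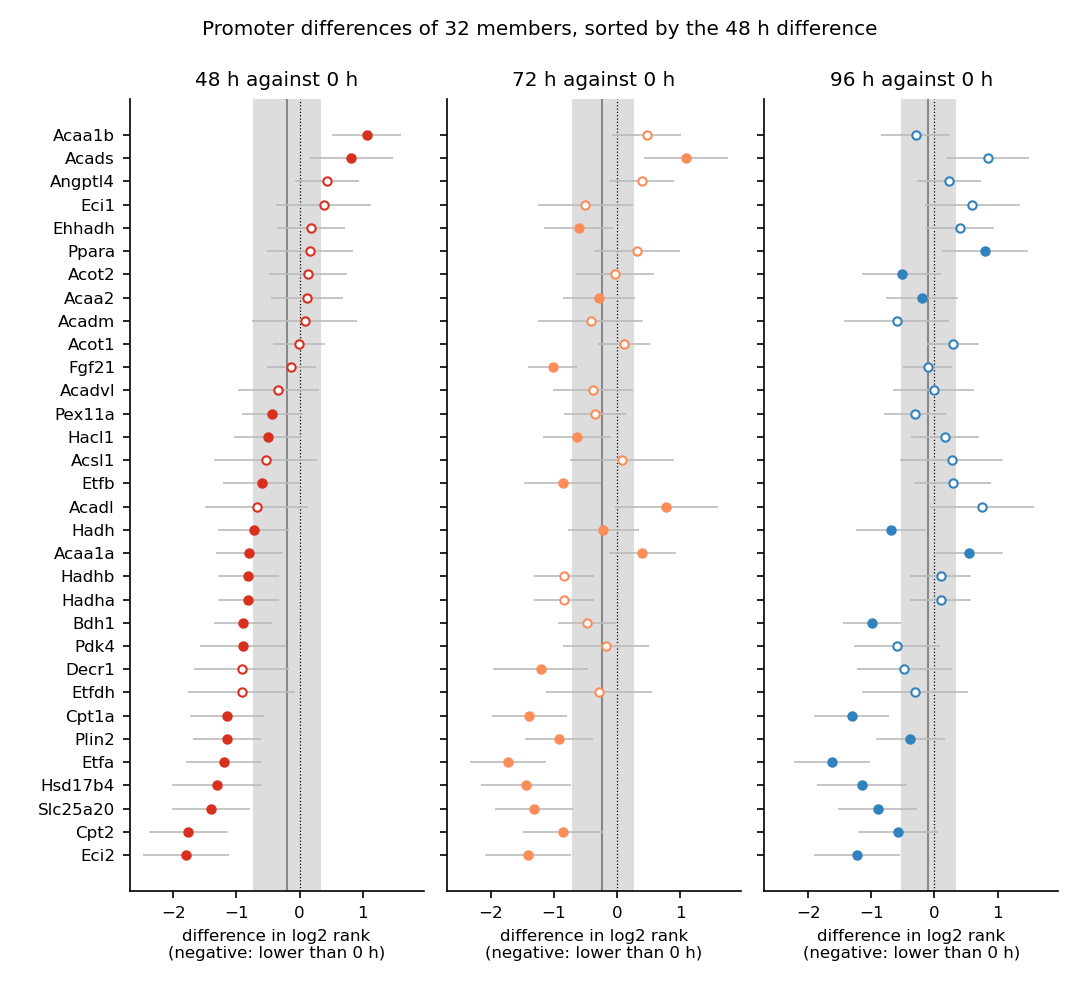
Difference in log2 rank against 0 h (x axis, negative means lower than 0 h) of the 32 testable member promoters at 48, 72 and 96 h, with standard errors from limma as bars; filled points mark promoters whose 2 libraries do not overlap both 0 h libraries. The grey band holds the middle 50% of all 13181 promoters and the grey line their median (-0.20, -0.24 and -0.10); at 48 h Eci2, Cpt2, Slc25a20, Hsd17b4, Etfa, Plin2 and Cpt1a are among those left of the band.

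The other genes of fatty acid metabolism were described through a list of 74 genes outside the 33, of which 68 had a promoter interval in all 8 lists. At 48 h 20 of them (29.4%) were lower and 7 (10.3%) higher, against 29.2% and 16.3% of all promoters, with a median of -0.22 against -0.20 for all promoters, and limma called 0 of them with adjustment and 7 (10.3%) at an unadjusted p under 0.05, where all promoters gave 12.5%. In all 6 PHx libraries 6 (8.82%) were lower and 1 (1.47%) higher, against 7.69% and 4.17%. The 2 with the largest difference downward without overlap were Crot, the peroxisomal carnitine octanoyltransferase (4568 and 5621 (0 h), 18530 and 15645 (48 h)), and Mlycd, the malonyl-CoA decarboxylase that relieves the block of Cpt1a (3723 and 11219, then 18559 and 24164). The 2 with the largest difference upward without overlap were Pparg, the adipogenic relative of Ppara (1516 and 11324, then 1010 and 1428), and Ephx2, the soluble epoxide hydrolase (12110 and 9484, then 6572 and 4594). The 2 0 h libraries of Pparg lay farther apart than its PHx libraries.

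The DR1 letters were sought on both strands, allowing 2 mismatches, in RefSeq promoter windows of 300 bases (250 before to 50 after the start, GRCm38.p6), which were on hand for 27 members and 8166 of the tested promoters. They were found in 4 of the 27 member windows (14.8%) and in 3.21% of all. The 4 were Slc25a20, Etfa, Plin2 and Fabp1. Fabp1 was not tested and so is not among the 8166, which means that it counts in the member share only. By rank within the list the promoters of Slc25a20, Etfa and Plin2 were lower in all 6 PHx libraries, and that of Fabp1 in each of those that listed it. Ranked among promoters or on quantile-normalised fold, none of Slc25a20, Etfa and Plin2 was lower in all 6. On percentiles only Etfa of these was (all promoters 3.79%), and on fold as deposited all 3 were (all promoters 16.3%). The match of Slc25a20 overlaps an annotated exon and is not shown. The other 3 are shown because they join a DR1 match with a promoter that ranked lower in its list in every PHx library that had it, with the DR1 match, and for Etfa also an NRF1 match (GCATGCGC), in capitals. Each is read along its gene, 5′ to 3′, outside exons, from chr9:55512244-55512493 (minus strand), chr4:86670061-86670309 (minus strand) and chr6:71199629-71199826 (plus strand) of GRCm38, whose coordinates are those of mm10.
Etfa: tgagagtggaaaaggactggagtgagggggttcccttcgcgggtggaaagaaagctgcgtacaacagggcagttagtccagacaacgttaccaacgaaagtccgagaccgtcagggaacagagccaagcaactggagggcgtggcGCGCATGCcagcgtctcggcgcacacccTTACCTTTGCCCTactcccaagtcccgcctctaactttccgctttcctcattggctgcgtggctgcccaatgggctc
Plin2: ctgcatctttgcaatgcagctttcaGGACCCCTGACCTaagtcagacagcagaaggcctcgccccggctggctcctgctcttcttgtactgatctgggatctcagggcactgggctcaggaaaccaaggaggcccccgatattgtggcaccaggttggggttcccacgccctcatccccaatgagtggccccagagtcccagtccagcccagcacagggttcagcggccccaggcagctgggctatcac
Fabp1: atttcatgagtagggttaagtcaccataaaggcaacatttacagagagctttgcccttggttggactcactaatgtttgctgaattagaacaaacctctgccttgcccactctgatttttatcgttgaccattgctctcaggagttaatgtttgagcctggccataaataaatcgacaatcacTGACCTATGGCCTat
The match differed from the DR1 pattern at 2 bases in Etfa, 2 in Plin2 and 1 in Fabp1. Of the other letter patterns, SP1 (GGGCGG) was found in 74.1% of member windows and 66.7% of all, NRF1 in 14.8% and 5.56%, and AP-1 (TGANTCA) in 3.7% and 4.21%. FOXA (TGTTTAC), C/EBP (TTGCNNCAA), CREB (TGACGTCA), HNF4 (CAAAGTCCA) and ERR (TCAAGGTCA) matched 0 member windows, and 2.47%, 1.36%, 3.31%, 0.355% and 0.233% of all. The ERR and HNF4 letters overlap those of DR1. The median GC content was 58.7% in member windows and 61.3% in all, and the median number of CpG was 14 and 21.

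Over the 126 other regions of the member loci, 93 had an interval in all 8 lists and were tested, 30 were in 4 to 7 lists and 3 in fewer. By the summit, 63 lay in introns of the member, 4 in exons, 22 upstream and 37 downstream. At 48 h 29 of the 93 (31.2%) had both libraries below both 0 h libraries and 13 (14.0%) above, against 24.4% and 19.9% of all 55123 regions tested. At 72 h it was 29 and 12 (all regions 22.8% and 19.8%), and at 96 h 27 and 14 (19.5% and 16.4%). In all 6 PHx libraries 10 (10.8%) were lower and 1 (1.08%) higher, against 6.12% and 4.6%. The median difference was -0.21 at 48 h, -0.16 at 72 h and -0.19 at 96 h, where all regions had -0.05, -0.04 and -0.04. On quantile-normalised fold the split at 48 h turned, with 16 lower (17.2%) and 23 higher (24.7%), against 20.5% and 20.8% of all regions. On fold as deposited 42 were lower (45.2%) and 6 higher (6.45%) at 48 h, against 56.9% and 3.89%. On percentiles the split turned later. At 72 h 17 were lower (18.3%) and 25 higher (26.9%), against 9.94% and 35.1% of all regions. At 96 h 9 were lower (9.68%) and 20 higher (21.5%), against 11% and 25.2%. On quantile-normalised fold 22 were lower and 15 higher at 72 h (all 20.2% and 18.4%). At 96 h that scale gave 14 lower and 14 higher (16.8% and 16.2%). On fold as deposited more were lower than higher at both later times. Of the 31 loci with a tested region, 17 had one that was lower and 8 one that was higher at 48 h, and 2 had both. The same count was not made over the loci of other genes, so these numbers have no background share. The number of these regions within the 50000 strongest intervals was 75 and 90 (0 h), 69 and 65 (48 h), 70 and 67 (72 h), and 77 and 70 (96 h).

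No other region passed limma's test with adjustment over all regions, on ranks or on fold as deposited, where 3.89% of all regions were called at 48 h. Over all regions the share called was 0.0218% at 48 h, 0.0% at 72 h, 0.0% at 96 h, 0.0% for the mean of the 3 times and 0.00907% for 96 h against 48 h. At an unadjusted p under 0.05, limma gave 10 of the 93 at 48 h, 8 at 72 h, 4 at 96 h, 7 for the mean of the 3 times and 11 for 96 h against 48 h, with 12.0%, 7.98%, 6.23%, 9.61% and 8.83% of all regions.

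The Ppara locus held the largest number of other regions of a member (11), and of its 9 tested ones 5 were lower and 0 higher in both 48 h libraries, where all regions had 24.4% and 19.9%. Positions are counted from the first base of the gene. The intronic region at +52663 (chr15:85786613-85787860) ranked 13742 and 7848 (0 h), 27221 and 34790 (48 h), 17334 and 38963 (72 h), and 17576 and 28093 (96 h). It was weaker in all 6 PHx libraries, with a 48 h difference of -1.57 ± 0.56 (SE; limma adjusted p = 0.254), while the promoter of the same gene overlapped between 0 and 48 h. The region at +73578 (chr15:85808197-85808752) lies past the end of Ppara, inside the gene Cdpf1. It ranked 19127 and 28672 (0 h), 60508 and 70734 (48 h), 12219 and 20012 (72 h), and 7071 and 20824 (96 h). It was weak at 48 h only and overlapped 0 h at 72 and 96 h, and its difference of 96 h against 48 h, 2.43 ± 0.55 (SE), had the lowest unadjusted p of any member region in any contrast (7.1e-05, limma adjusted p = 0.122). The intronic regions at +36586 and +39486 were also lower in both 48 h libraries (-0.98 and -1.07), and that at +42046 in all 6 PHx libraries. The 200 bases around the summits of the first 2 regions are shown because they had the largest 48 h differences of the locus, from chr15:85787546-85787745 and chr15:85808461-85808660 (plus strand). Capitals mark 2 DR1 matches in the first, of which the former overlaps a FOXA match (TGTTTAC), and the second has none of the letter patterns searched.
Ppara +52663: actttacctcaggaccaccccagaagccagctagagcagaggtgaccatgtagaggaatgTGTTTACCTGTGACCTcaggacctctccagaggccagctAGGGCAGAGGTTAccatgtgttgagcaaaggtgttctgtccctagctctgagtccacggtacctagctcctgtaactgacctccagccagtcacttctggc
Ppara +73578: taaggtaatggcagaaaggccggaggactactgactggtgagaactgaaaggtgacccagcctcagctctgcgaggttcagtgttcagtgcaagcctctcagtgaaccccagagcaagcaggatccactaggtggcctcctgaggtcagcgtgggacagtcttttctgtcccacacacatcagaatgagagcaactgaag

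**Figure D3:**
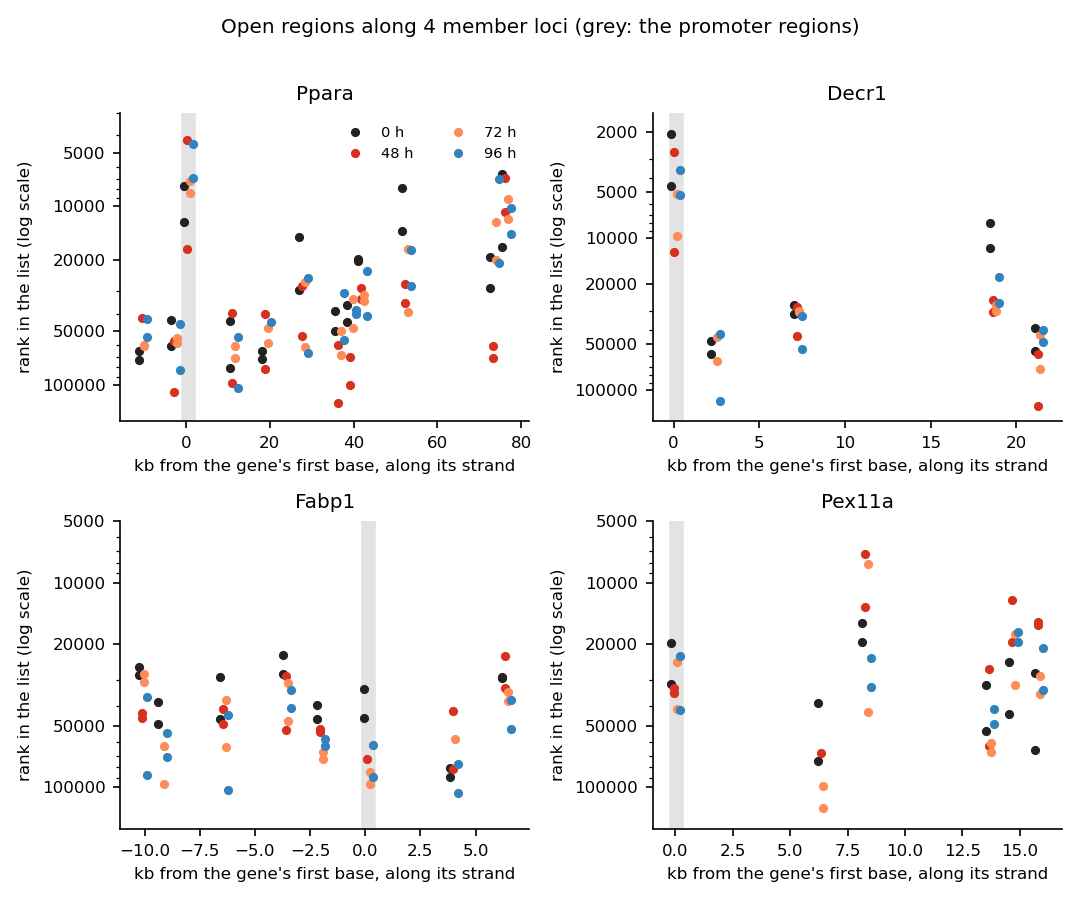
Rank of each open region (y axis, log scale, stronger upward) by its distance from the first base of the gene along its strand (x axis, kb) at the Ppara, Decr1, Fabp1 and Pex11a loci; points are libraries, colored by time and set slightly apart, and grey marks the promoter regions. At Ppara the 48 h points lie lowest in the region past the gene's end, inside Cdpf1, while the promoter points overlap, and at Pex11a the 48 h points lie highest in the last region on the right.

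The intronic region of Decr1 at +18726 (chr4:15926359-15927084) ranked 7971 and 11562 (0 h), 30490 and 25621 (48 h), 27735 and 30206 (72 h), and 18069 and 26696 (96 h). It was weaker in all 6 PHx libraries with a wide gap to 0 h, and the difference was -1.54 ± 0.54 (SE; limma adjusted p = 0.246) at 48 h and -1.44 ± 0.44 (SE; limma unadjusted p = 0.0022, adjusted p = 0.286) for the mean of the 3 times. Its summit window, from chr4:15926681-15926880 (minus strand), is shown because the region had the lowest p of the 93 for the mean of the 3 times, and it holds none of the letter patterns.
Decr1 +18726: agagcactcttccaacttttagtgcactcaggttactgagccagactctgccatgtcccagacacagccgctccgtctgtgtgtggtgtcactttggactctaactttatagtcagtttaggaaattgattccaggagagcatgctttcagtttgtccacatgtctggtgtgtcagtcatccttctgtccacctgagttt

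The intronic region of Eci2 at +10839 (chr13:35015996-35016863) ranked 16276 and 36624 (0 h), 73251 and 47950 (48 h), 45347 and 31151 (72 h), and 26867 and 37959 (96 h). It was lower at 48 h (-1.28) and overlapped 0 h later. The intronic region of Cpt1a at +11169 (chr19:3332952-3333645) ranked 41827 and 22860 (0 h), 65003 and 70567 (48 h), 37399 and 37531 (72 h), and 28340 and 21563 (96 h). It too was lower at 48 h only (-1.13), while the strongest interval of the Cpt1a promoter was lower at each time. The region at +31538 of Acadm (chr3:153912125-153913445) lies within 1 kb of the start of the neighbor Rabggtb and ranked 11220 and 5416 (0 h), 15766 and 20398 (48 h), 27180 and 19612 (72 h), and 13636 and 7406 (96 h). It was lower at 48 and 72 h. The limma adjusted p at 48 h was 0.286, 0.325 and 0.431 for these 3 regions.

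Upstream of Fabp1 the regions at -10069, -3543 and -1999 were lower in both 48 h libraries, and those at -3543 (chr6:71195982-71196453) and -1999 (chr6:71197705-71197983) in all 6 PHx libraries. The region at -1999 ranked 39516 and 46207 (0 h), 51991 and 53942 (48 h), 67431 and 72766 (72 h), and 62659 and 58003 (96 h), which placed the 72 h libraries lowest. The region of Plin2 at -1859 (chr4:86671780-86672093), upstream of its start, ranked 43358 and 32011 (0 h), 65074 and 57039 (48 h), 72246 and 72502 (72 h), and 80416 and 41328 (96 h). It was lower at 48 and 72 h and 1 of the 96 h libraries overlapped 0 h. Its summit window, from chr4:86671819-86672018 (minus strand), is shown because it has a DR1 match, in capitals, besides the one in the Plin2 promoter.
Plin2 -1859: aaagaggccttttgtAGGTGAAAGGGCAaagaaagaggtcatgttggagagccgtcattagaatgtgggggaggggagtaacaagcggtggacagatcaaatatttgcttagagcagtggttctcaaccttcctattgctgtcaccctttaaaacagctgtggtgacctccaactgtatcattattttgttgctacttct

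The locus of Pex11a stood on the other side, with 3 of its 4 tested other regions higher in both 48 h libraries and 0 lower, where 19.9% of all regions were higher and 24.4% lower. All 3 lie downstream of Pex11a, and 2 of them inside Plin1, which encodes a lipid droplet coat related to Plin2. The region at +15843 (chr7:79727093-79727439) ranked 27726 and 65801 (0 h), 15654 and 16115 (48 h), 28693 and 34950 (72 h), and 20958 and 33324 (96 h). It was strongest at 48 h, by 1.43 ± 0.52 (SE; limma adjusted p = 0.26), and the later times overlapped 0 h. The region at +14718 (chr7:79728126-79728660) ranked 24331 and 44062 (0 h), 19427 and 12153 (48 h), 31496 and 17923 (72 h), and 17395 and 19423 (96 h), with a 48 h difference of 1.09 and both 96 h libraries also above 0 h. The summit window of the former, from chr7:79727188-79727387 (minus strand), is shown as the region with the largest upward difference, and none of the letter patterns was found in it.
Pex11a +15843: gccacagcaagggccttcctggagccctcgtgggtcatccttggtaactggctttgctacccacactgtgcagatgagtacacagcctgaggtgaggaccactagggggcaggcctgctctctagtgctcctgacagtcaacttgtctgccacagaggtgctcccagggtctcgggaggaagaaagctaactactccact

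**Figure D4:**
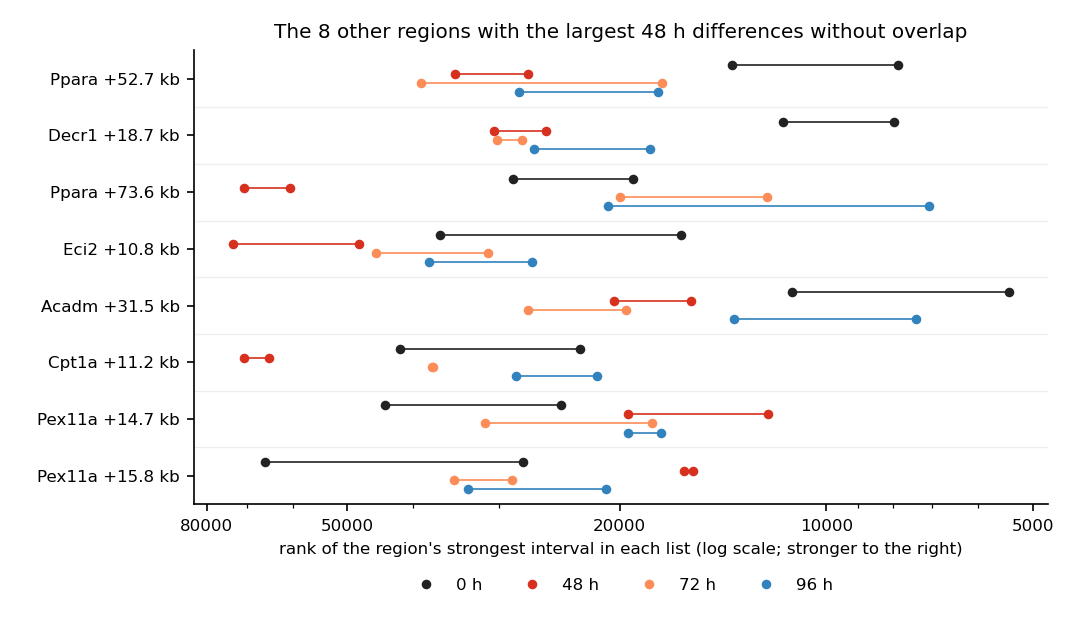
Rank (x axis, log scale, stronger to the right) in each library of the 8 other regions of member loci with the largest 48 h differences without overlap; points are libraries, colored by time, and both libraries of a time are joined. The red 48 h points lie left of the black 0 h points in the upper 6 regions and right of them in the lower 2, both at the Pex11a locus.

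Hadh, where 6 regions were tested, had 3 higher and 1 lower at 48 h (all regions 19.9% and 24.4%). Its intronic region at +34126 (chr3:131237669-131238988) ranked 13876 and 14001 (0 h) and 7701 and 6299 (48 h), and that at +25142 (chr3:131245872-131247279) 43464 and 23612 (0 h) and 65674 and 59377 (48 h). A region downstream of Acaa2 at +27284 (chr18:74806364-74806590) had an interval in both 48 h lists, at ranks 24831 and 57444, and in none of the other 6. It entered the consensus regions through its rank of 24831 in 48 h replicate 1 alone, so it was chosen by the time at which it was listed. The region was not tested. How many of all regions were listed at a single time only was not counted, so its presence has no background share.

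The DR1 letters were found in 11 of the 126 other regions (8.73%), in the 200 bases around the summit. They were found in 7.4% of the 56061 regions over 1 kb from any annotated transcription start, coding or not. Among all such regions that could be ranked in the 8 lists, 31.4% of the 3015 with the letters were lower and 12.0% higher at 48 h, while 22.5% and 21.4% of the 36524 without them were. In all 6 PHx libraries 8.86% of those with the letters were lower and 2.69% higher, against 5.33% and 4.84% without. At promoters the difference at 48 h was smaller, with 32.8% of 262 lower and 14.1% higher with the letters, and 29.7% and 15.4% of 7904 without. In all 6 PHx libraries 12.2% of promoters with the letters were lower and 2.67% higher, against 7.92% and 4.1% without. These shares rest on the rank within the list and were not computed on another scale. They are descriptions over regions of the same 8 libraries, and regions are not replicates. FOXA letters were found in 6.35% of the members' regions and 5.67% of all, AP-1 in 8.73% and 9.13%, SP1 in 9.52% and 6.4%, C/EBP in 1.59% and 2.03% and HNF4 in 1.59% and 1.62%.

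**Figure D5:**
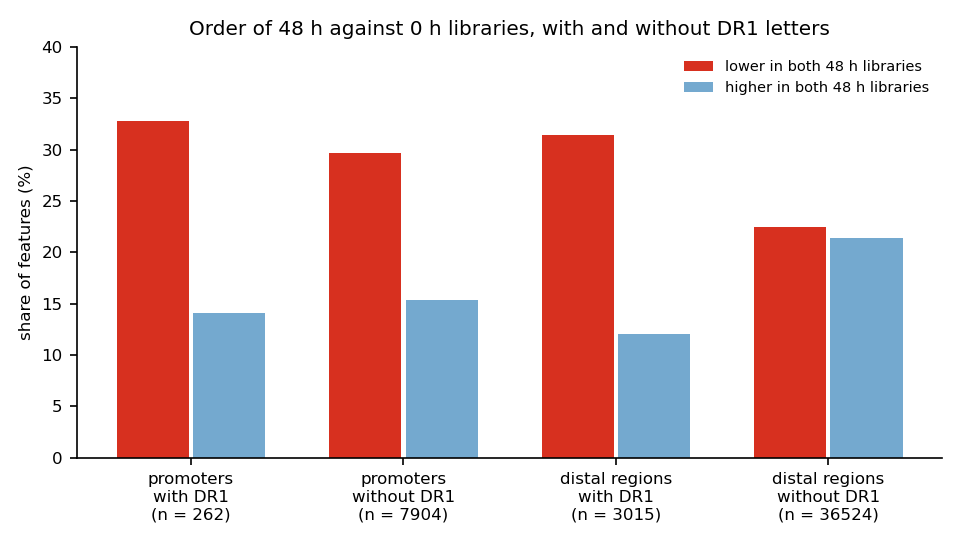
Share of all promoters, and of all regions over 1 kb from any annotated transcription start (distal regions), with both 48 h libraries below or above both 0 h libraries (y axis, %, bars from 0), by whether the window holds the DR1 letters. Among distal regions with DR1 31.4% were lower and 12.0% higher, and among those without it 22.5% and 21.4%.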

How the data were processed

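Accessibility was compared in 8 bulk ATAC-Seq libraries, 2 per time, grouped by their labels. More preparations that the study describes at 0 and 48 h were not analysed here. By its methods, the authors ran an ENCODE pipeline that maps reads to mm10 by Bowtie2, drops PCR duplicates and calls peaks with MACS2. Each deposited peak has a fold enrichment over local background, a ratio, and a −log10 p and −log10 q, the peak caller's own. They hold no read counts, so the depth is unknown, no intervals were computed and the number of libraries limits the precision. The list of 72 h replicate 2 is named in another style than the other 7.

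Lines with the same interval were collapsed to the highest −log10 p and ranked within the list. Promoters were intervals within 1 kb of 41413 coding starts in GENCODE M21 basic. Consensus regions merged the 50000 strongest intervals of each list. The negative log2 rank was fitted across all promoters (13181) and all regions (55123) with an interval in all 8 lists, by limma 3.58.1 in R 4.3.3 (empirical Bayes with trend, Benjamini-Hochberg). The scripts were tested on simulated data. A feature was counted lower or higher where both libraries of a time lay beyond both 0 h libraries. Sequences were read from RefSeq's GRCm38.p6 by pysam 0.24.0.

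The 33 members and the lists were chosen with earlier results of these data known. Values in every library are given for Ppara, Cpt1a, Fabp1 (missing from a list), and the 8 promoters and 8 other regions with the largest 48 h difference among those without overlap, the 5 least different promoters by their range, and the pathway genes with the 2 largest differences in each direction. Other genes and regions were named after their values were seen. Alternatives covered the scale, the filter, the window, the overlap and leaving out each library.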

Additional observations from a re-analysis of the deposited data

Results flagged for a closer look

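In 7 promoters or regions of the members both libraries of one time lay below, and both of another time above, both 0 h libraries. They were 1 of 32 member promoters (3.12%) and 6 of 93 other regions (6.45%), where the same held for 5.11% of all promoters tested and 6.25% of all regions tested. The Acaa1a promoter differed by -0.80 at 48 h, 0.40 at 72 h and 0.55 at 96 h (log2 rank against 0 h). In introns of Cpt1a, the region at +4311 differed by -0.65 at 48 h and 0.61 at 72 h, and that at +31579 by -0.34 and 0.97. The region at +19831 of Acsl1 differed by -0.69 at 48 h, 0.38 at 72 h and 0.40 at 96 h, and that at +8859 of Hsd17b4 by -0.43 at 48 h and 0.34 at 96 h. The remaining regions went the other way. The region at +6339 of Hadh differed by 0.67 at 48 h, 0.24 at 72 h and -0.28 at 96 h, and that at +8339 of Pex11a by 0.84 at 48 h and -0.65 at 96 h. The contrast of 72 h with 48 h or 96 h was not tested. That between 96 h and 48 h had a limma adjusted p of 0.575 for Acaa1a, 0.522 for Acsl1, 0.638 for Hsd17b4, 0.547 for Hadh and 0.485 for Pex11a.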

How the results depend on the processing

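Limma called 0 other regions under each alternative and 0 member promoters under each but the fold enrichment as deposited, which was added after the data were seen. On it 6 promoters were called, 1 promoter and 6 other regions were higher, and the median was -0.52 for promoters and -0.27 for regions. The 17 named features kept their 48 h direction and call in 285 of 291 refits. All of them but Ppara had 48 h libraries without overlap with 0 h on ranks, so leaving out a library could not turn their direction. The count is thus largely set by how they were chosen. Cpt2, Slc25a20, Hsd17b4 and Eci2 were called on fold as deposited, and the direction turned only for Ppara, at -0.16 without 0 h replicate 1 and at -0.84 without 48 h replicate 1, and leaving out 1 library moved its difference between -0.84 and 1.19. Leaving out 1 library at a time, which makes an overlap less likely where 1 library remains, gave 16 to 22 lower and 2 to 6 higher member promoters with a median of -0.75 to -0.21 (the latter without 0 h replicate 2), and 29 to 50 lower and 13 to 27 higher other regions with a median of -0.32 to -0.12. Called counts there stayed at 0 to 0. Ranked among promoters, 10 were lower and 5 higher, with a median of -0.26. On quantile-normalised fold the promoters had 5 higher and a median of -0.14 at 48 h and 0.05 at 96 h (at 48 h Cpt1a -0.09, Etfa -0.15, Hsd17b4 -0.22, Eci2 -0.31, on its own log2 scale), and the other regions 16 lower, 23 higher and a median of 0.01. With every rank at 50000 or better, 1 promoter was higher, and 7 other regions were lower and 5 higher of 30, with a median of -0.11 at 48 h and 0.01 at 72 h. A 500 bp promoter window left 1 higher. On percentiles the other regions had a median of -0.06 at 48 h, 0.19 at 72 h and 0.04 at 96 h. An overlap of 50% left 11 lower and 3 higher of 30, and a 2 kb flank 7 higher of 56. Same-numbered libraries did not deviate together (correlations of -0.0861 to 0.116 over promoters), so the numbers do not pair them, and a replicate block gave medians of -0.64 and -0.21 and 0 calls. The cause of these shifts was not tested. Fewer features enter the stricter filters. The counts of lower and higher members after leaving out a library, and under the filters, windows and overlap, have no share over all features beside them. They show how the members' counts moved and cannot be read against the background.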
